A study of Mus musculus with 10 samples.

Results

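The genes described here were 10 members of the MHC class I and class II antigen presentation pathway, namely H2-Aa, H2-Ab1, H2-Eb1, H2-DMa, H2-DMb1, Cd74, Ciita, H2-K1, H2-D1 and B2m. They were taken by name: each Ensembl identifier of the count table was matched to a symbol in GENCODE M21, and the 10 rows with these symbols were kept out of 51789 genes. The rule used no measured value, but the members were chosen with earlier results of these data known. RNA came from cardiomyocytes isolated on day 4 after myocardial infarction (MI) and was measured in 10 libraries, 5 from TgGRK5-MI mice and 5 from NLC-MI mice. TgGRK5 mice carry a GRK5 transgene that is overexpressed in cardiomyocytes, and NLC mice are their non-transgenic littermates. All 10 libraries came from infarcted hearts, MI was made by permanent ligation of the left coronary artery, and no sham-operated library was included. Per the study, the mice were young adults and both sexes were operated. The sex of the mouse behind each library and the promoter of the transgene were not given in the sources used here. The comparison addresses whether GRK5 overexpression in cardiomyocytes changes transcripts in the infarcted heart.

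MHC class I molecules sit on nearly all nucleated cells and show peptides from inside the cell to CD8+ T cells, and each pairs a heavy chain such as H2-K or H2-D with beta-2-microglobulin. MHC class II molecules are built from an alpha and a beta chain, occur mainly on macrophages, dendritic cells and B cells, and show ingested peptides to CD4+ T cells. The invariant chain Cd74 guides class II chains to the endosome, H2-DM exchanges peptides there, and the coactivator CIITA switches the class II genes on together. In the heart, class II transcripts are carried largely by resident and recruited macrophages, and cardiomyocytes are not known as professional antigen presenting cells.

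The stretches of DNA before the start sites are shown because most of the members varied together over the libraries. The members other than Ciita are also known to share a promoter module, the X and Y boxes bound by RFX, CREB and NF-Y. The part of that module in the shared variation was not tested. RefSeq promoter windows on GRCm38.p6, each from 250 bases before to 50 bases after a start site, were found for 7 of the 10 members (H2-Aa, H2-Eb1, H2-DMa, H2-DMb1, H2-K1, H2-D1 and B2m). Both strands were searched for CCNAGNNAC (X1), TGACG (X2), ATTGG (Y), TTTCNNTTT (interferon response) and GGGANTTCC (kappaB). In H2-K1, H2-D1 and B2m an X2 match was followed by a Y match after exactly 20 bases, and in H2-Aa after 21 bases. Capitals mark the X2 and Y matches at either end of these runs.
H2-K1: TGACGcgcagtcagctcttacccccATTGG
H2-D1: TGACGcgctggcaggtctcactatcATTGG
B2m: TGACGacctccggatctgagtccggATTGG
H2-Aa: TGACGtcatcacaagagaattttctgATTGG

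These runs lie at chr17:34000359-34000388 (minus strand, H2-K1), chr17:35262993-35263022 (plus strand, H2-D1), chr2:122147609-122147638 (plus strand, B2m) and chr17:34287867-34287897 (minus strand, H2-Aa). They begin 41, 101, 78 and 74 bases before the RefSeq start sites of H2-K1, H2-D1, B2m and H2-Aa. The H2-D1 run lies within the first exon of a longer GENCODE transcript of the same gene. Among all 32851 mouse promoter windows, 54 held TGACG and ATTGG in this order and at this distance on either strand, which is 0.164%, and 4 of the 7 members with a window were among the genes that did. The distance was chosen after the members' matches were seen.

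The longer stretch before the start site is shown for a class II alpha chain, a class II beta chain and the shared class I light chain, with every match to the 5 motifs in capitals. H2-Aa, at chr17:34287824-34287963 on the minus strand, held a kappaB match, a TGACG match on each strand that overlap each other, and a Y match. H2-Eb1, at chr17:34305727-34305866 on the plus strand, held only a pair of Y matches, 1 on each strand. B2m, at chr2:122147547-122147685 on the plus strand, held an interferon response match on the minus strand besides X2 and Y.
H2-Aa: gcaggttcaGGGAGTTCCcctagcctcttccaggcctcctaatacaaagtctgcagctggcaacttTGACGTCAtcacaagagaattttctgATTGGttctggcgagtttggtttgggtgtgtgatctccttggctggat
H2-Eb1: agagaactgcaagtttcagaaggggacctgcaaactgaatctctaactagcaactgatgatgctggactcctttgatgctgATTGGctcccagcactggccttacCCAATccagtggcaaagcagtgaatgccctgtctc
B2m: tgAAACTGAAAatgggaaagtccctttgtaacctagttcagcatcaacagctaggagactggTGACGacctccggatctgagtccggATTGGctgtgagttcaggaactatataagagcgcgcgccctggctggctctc

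Single motifs were common, since X1 was held by 17.3% of all windows, X2 by 20.8%, Y by 37.4%, the interferon response motif by 10.6% and the kappaB motif by 1.68%. X1, X2 and Y together were held by 1.48% of all windows and, among the members, only by the window of H2-Aa, whose X1 match began 180 bases before the start site. The X2 matches of that window began 74 and 71 bases before the start site, so the X1 match did not lie beside them. H2-DMb1 held an X1 match 98 bases and a Y match 61 bases before its start site. A match gives the letters alone, and binding was not measured. Boxes that differ from the searched letters are missed, so a window without a match may still hold a box.

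The libraries held 7968779 to 23381527 counts each, and 3 counts, the smallest number taken as detection, stood for 0.121 to 0.393 CPM, that is counts scaled to a common library size. Of the 51789 genes, 15232 passed the filter on low counts and were tested. The labels held, since Grk5 was at 46.5 to 73.1 CPM in the NLC-MI libraries and at 552.4 to 1700 CPM in the TgGRK5-MI libraries (log2 fold change 4.34 ± 0.32 SE, edgeR quasi-likelihood adjusted p = 0.000246). The 10 cardiomyocyte markers summed to 54514 to 141623 CPM. All libraries also held RNA of other cells, with 879.9 to 2925 CPM for 16 macrophage and monocyte markers and 3737 to 21781 CPM for 6 fibroblast markers. NLC-MI 3 and TgGRK5-MI 4 had the fewest counts, 7968779 and 9114469, and some of the results are also given without them.

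None of the 10 members differed between TgGRK5-MI and NLC-MI beyond the spread between mice. All 10 passed the filter. At an adjusted p under 0.10, edgeR called 0 of the 10 members, against 0.0788% of all genes tested, and at an unadjusted p under 0.05 it called 0 of 10, against 3.85% of all genes. DESeq2 and limma-voom also called 0 of 10 at either threshold. The groups overlapped in every member, while 1.00% of all genes tested had groups that did not overlap. The log2 fold changes, TgGRK5-MI over NLC-MI, ran from -0.04 to 0.39 with a median of 0.20 (7 positive, 3 negative), beside a median of 0.0013 over all genes tested, and every adjusted p was 1.00. The intervals were wide, so changes of moderate size could not be detected with 5 mice a group. In bulk RNA, fewer cells of a type and less RNA per cell cannot be told apart, here or in any value that follows.

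**Figure D1:**
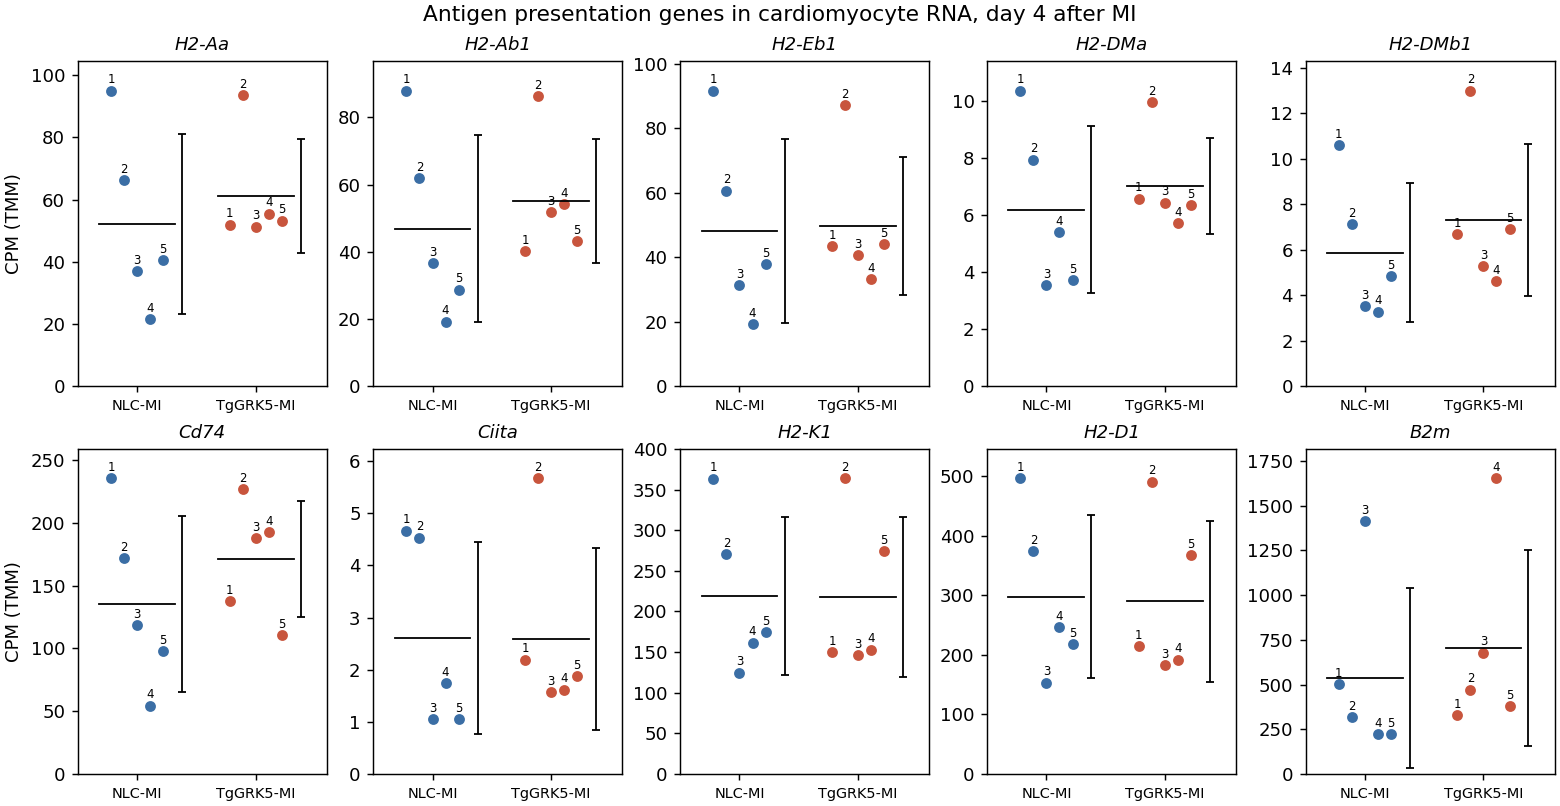
CPM (TMM-scaled, linear axes from 0) of the 10 members in each library, with NLC-MI in blue and TgGRK5-MI in red, the replicate number above each point, a black line at the group mean and a bar of 1 SD beside it. NLC-MI 1 and TgGRK5-MI 2 were the highest of their groups for all members but B2m, which was high in NLC-MI 3 and TgGRK5-MI 4, and the groups overlap in every panel.

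The class II chains were measured well above the floor in every library. H2-Aa, the alpha chain of the I-A molecule, was at 94.97, 66.2, 36.9, 21.5 and 40.6 CPM in NLC-MI 1 to 5 and at 51.9, 93.6, 51.3, 55.5 and 53.2 CPM in TgGRK5-MI 1 to 5. NLC-MI 1 and TgGRK5-MI 2 were nearly equal and highest, and NLC-MI 4 was lowest, so the NLC-MI libraries reached both above and below all those of TgGRK5-MI. The means were 52.0 ± 28.9 and 61.1 ± 18.3 CPM (SD, n = 5 each). The log2 fold change was 0.23 ± 0.34 SE with a 95% interval of -0.52 to 0.98 (edgeR p = 0.515 and adjusted p = 1.00, exact two-sided permutation p = 0.349). H2-Aa lies on the minus strand at chr17:34282744-34287823, within the cluster that also holds the other chain genes on that chromosome.

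H2-Ab1, the beta chain that pairs with H2-Aa, gave nearly the same picture (chr17:34257689-34269419, plus strand). Its lowest value was 19.3 CPM, in NLC-MI 4, and its highest 88.0 CPM, in NLC-MI 1. It ran from 40.1 to 86.3 CPM over the TgGRK5-MI libraries, of which TgGRK5-MI 2 was again the highest. Its log2 fold change was 0.23 ± 0.37 SE (95% interval -0.58 to 1.04). H2-Eb1, the beta chain of the I-E molecule (chr17:34305867-34316674, plus strand), ran from 19.2 to 91.6 CPM in NLC-MI and from 33.3 to 87.2 CPM in TgGRK5-MI. Its means were 48.2 ± 28.6 and 49.7 ± 21.4 CPM (SD, n = 5 each), and its log2 fold change was 0.05 ± 0.39 SE (95% interval -0.80 to 0.89).

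The alpha chain that would pair with H2-Eb1 was not seen. Its gene model in the reference genome, H2-Ea-ps, is named as a pseudogene, and it had 0 counts in all 10 libraries, out of 174410630 counts in all. The floor of 3 counts per library allows a level of up to 0.121 to 0.393 CPM. H2-Eb1 was thus counted at a level near that of H2-Ab1 while no read was assigned to that partner. H2-T3, a class I-like gene, was also at 0 in every library.

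Cd74, the invariant chain, had the highest level of the class II pathway members (chromosome 18, 60803848 to 60812652, plus strand). It was at 235.6, 172.0, 118.4, 54.4 and 98.0 CPM in NLC-MI 1 to 5 and at 137.8, 227.0, 188.0, 192.8 and 110.8 CPM in TgGRK5-MI 1 to 5. The same NLC-MI library was lowest as for the chains, and 3 of the 5 TgGRK5-MI libraries lay above 4 of the 5 NLC-MI libraries. The means were 135.7 ± 70.0 and 171.3 ± 46.5 CPM (SD, n = 5 each), and the log2 fold change was 0.34 ± 0.34 SE with a 95% interval of -0.40 to 1.08 (edgeR adjusted p = 1.00).

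The class II peptide exchange genes were lower. H2-DMa (chr17:34119541-34139101, plus strand) ran from 3.53 to 10.4 CPM in NLC-MI and from 5.71 to 9.95 CPM in TgGRK5-MI, with a log2 fold change of 0.17 ± 0.30 SE. H2-DMb1 (chr17:34153072-34160230, plus strand) ran from 3.28 to 10.6 CPM in NLC-MI and from 4.63 to 13.0 CPM in TgGRK5-MI, with a log2 fold change of 0.31 ± 0.37 SE. TgGRK5-MI 2 stood above the rest of its group for both genes. H2-DMb1 shares 22.7% of its transcript runs of 50 bases with the neighbouring copy H2-DMb2, and 360 exon bases of H2-DMa overlap Brd2 on the opposite strand, so reads of these pairs may have been split or merged.

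Ciita, the class II coactivator (chr16:10480059-10528418, plus strand), was the lowest member. It was at 4.67, 4.53, 1.05, 1.74 and 1.05 CPM in NLC-MI 1 to 5 and at 2.19, 5.67, 1.56, 1.62 and 1.88 CPM in TgGRK5-MI 1 to 5. The libraries with high class II chains, NLC-MI 1 and 2 and TgGRK5-MI 2, were also the 3 highest for Ciita. The means were 2.61 ± 1.84 and 2.58 ± 1.74 CPM (SD, n = 5 each), and the log2 fold change was -0.03 ± 0.51 SE with a 95% interval of -1.13 to 1.08. Its 526 counts over all libraries limit the precision, and 329 of its exon bases overlap Dexi on the opposite strand.

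H2-K1, a classical class I heavy chain (chr17:33996017-34000347, minus strand), was at 363.5, 270.8, 124.8, 161.6 and 174.9 CPM in NLC-MI 1 to 5. In TgGRK5-MI 1 to 5 it was at 149.8, 363.9, 146.2, 153.1 and 274.6 CPM. The highest library of each group had nearly the same level, and 3 libraries of each group lay between 124.8 and 174.9 CPM. The means were 219.1 ± 97.0 and 217.5 ± 98.1 CPM (SD, n = 5 each), and the log2 fold change was -0.01 ± 0.34 SE with a 95% interval of -0.75 to 0.73.

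H2-D1, the second classical heavy chain (chr17:35262730-35267499, plus strand), had means of 298.0 ± 137.2 and 289.9 ± 135.5 CPM (SD, n = 5 each) and a log2 fold change of -0.04 ± 0.36 SE (95% interval -0.82 to 0.74). It followed H2-K1 closely, and the ratio of H2-D1 to H2-K1 per length stayed between 1.40 and 1.74 in all 10 libraries. H2-D1 shares 12.8% of its runs of 50 bases with 168 other genes, most of all with H2-Q1, H2-K1 and H2-Q7. H2-K1 shares 9.63% with 25 other genes, most of all with H2-Q10, H2-D1 and H2-Q7. Some reads may thus have been divided among these genes.

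B2m, the light chain of all class I molecules (chr2:122147686-122153083, plus strand), did not follow the heavy chains. It was at 501.7, 319.8, 1415, 224.4 and 221.0 CPM in NLC-MI 1 to 5 and at 328.7, 472.2, 678.2, 1654 and 378.0 CPM in TgGRK5-MI 1 to 5. NLC-MI 3 and TgGRK5-MI 4 were the highest of their groups by far, and these were the 2 libraries with the fewest counts. The means were 536.4 ± 504.2 and 702.2 ± 548.7 CPM (SD, n = 5 each), and the log2 fold change was 0.39 ± 0.58 SE with a 95% interval of -0.89 to 1.67 (edgeR adjusted p = 1.00).

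The B2m comparison moved with these libraries and with the sex covariate, the difference of Xist and Y-linked log2 CPM. Without NLC-MI 3 the log2 fold change was 1.15 ± 0.48 SE, which passed the unadjusted threshold of 0.05 but not the adjusted one (edgeR adjusted p = 0.700). Without TgGRK5-MI 4 it was -0.21 ± 0.53 SE, and without both it was 0.55 ± 0.32 SE (edgeR adjusted p = 1.00 for each). With the sex covariate and all libraries it was 1.12 ± 0.65 SE (edgeR adjusted p = 0.972). No shared 50-base run with another gene was found for B2m.

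**Figure D2:**
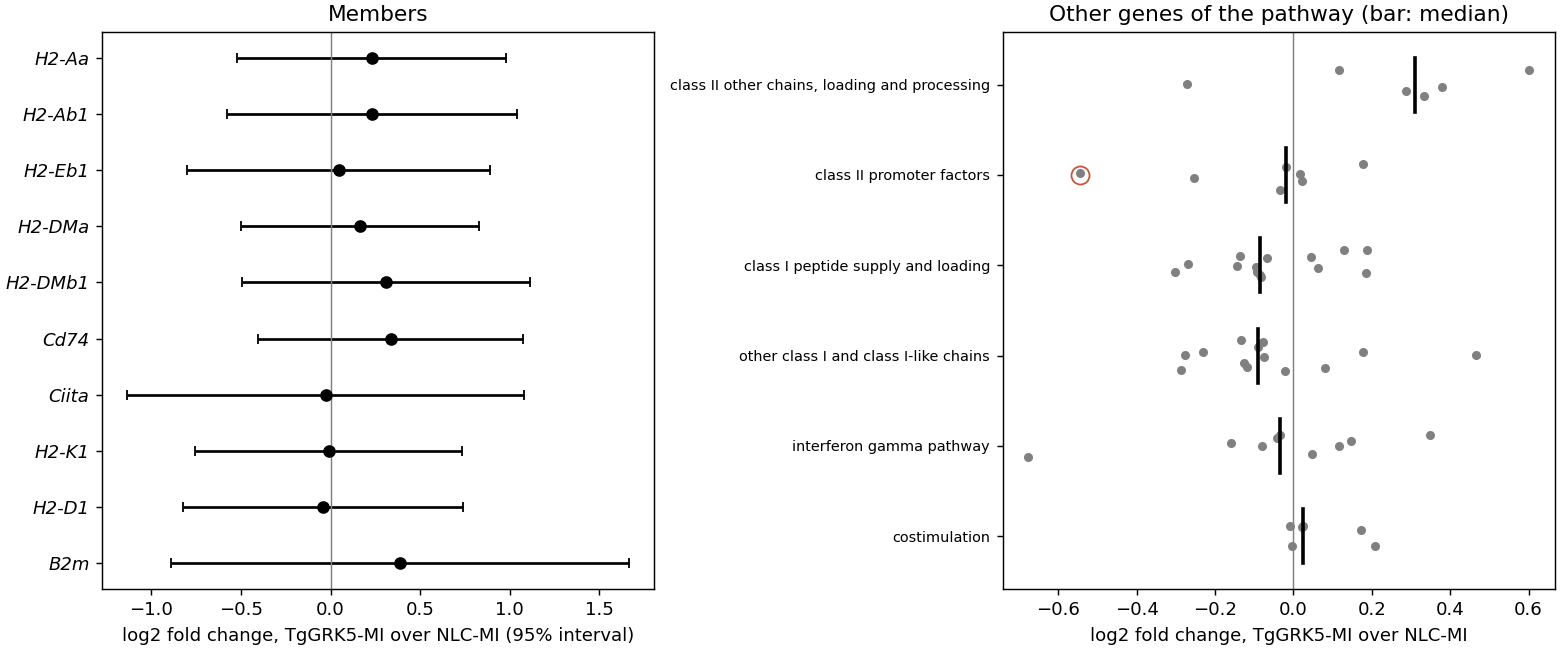
Left, the log2 fold change of each member, TgGRK5-MI over NLC-MI, with its 95% interval. Right, the log2 fold change of each other tested gene of the pathway in 6 lists, with a bar at the median of each list and a red ring around Rfxank, the single gene with an unadjusted p under 0.05. All 10 member intervals cross 0.

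The order of the members is given per length, as length-scaled values (TPM) computed from the counts and exon lengths. B2m was at 2086 ± 1705 TPM (SD, n = 10 libraries), H2-D1 at 339.4 ± 170.0, Cd74 at 268.6 ± 116.0 and H2-K1 at 220.6 ± 106.7. The chains H2-Eb1, H2-Ab1 and H2-Aa followed at 74.7 ± 41.6, 58.9 ± 29.9 and 44.0 ± 20.99 TPM. H2-DMb1, H2-DMa and Ciita came last at 11.6 ± 6.15, 5.67 ± 2.34 and 0.824 ± 0.590 TPM. Each member lay above the next in 10 of 10 libraries, except that H2-D1 lay above Cd74 in 7, Cd74 above H2-K1 in 7 and H2-Eb1 above H2-Ab1 in 9. Cd74 was thus not separated from H2-D1 or from H2-K1 beyond the spread between libraries, while H2-D1 lay above H2-K1 in every library.

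Ratios per length within a library varied less than the levels for all chains but B2m. The ratio of H2-Aa to H2-Ab1 ran from 0.669 to 0.953 and that of Cd74 to the 3 class II chains from 1.23 to 2.17, while the summed TPM of these 4 genes ran from 172.6 to 796.6, a 4.62-fold range. The NLC-MI mean of that sum was 421.3 ± 258.2 TPM and the TgGRK5-MI mean 471.1 ± 157.6 TPM (SD over 5 libraries). The ratio of B2m to H2-K1 plus H2-D1, however, ran over a 10.3-fold range, from 1.57 to 16.1. It was 16.1 in NLC-MI 3 and 15.2 in TgGRK5-MI 4.

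The members varied more between mice of a group than most genes did. The SD of log2 CPM within groups was 0.52 for H2-DMa, the lowest of the members, and 1.03 for B2m, the highest, beside a median of 0.39 over all genes tested. Ciita, at 0.89, was at the 93.2th percentile of all genes and B2m at the 95.4th.

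Likeness between members was described by Pearson's r of log2 CPM after the group means were taken off, over 10 libraries that share depth and cell composition within each library. The 21 pairs among the 7 class II pathway members had r from 0.60 to 0.97, with a median of 0.83. H2-Aa with H2-Eb1 (0.97), H2-Aa with H2-Ab1 (0.97) and H2-Eb1 with H2-DMb1 (0.97) were the closest of these. H2-K1 with H2-D1 was the closest pair of all, at 0.99, and the 14 pairs of a class II member with H2-K1 or H2-D1 had a median of 0.80. B2m with the other 9 members had r from -0.40 to 0.40, with a median of -0.23.

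**Figure D3:**
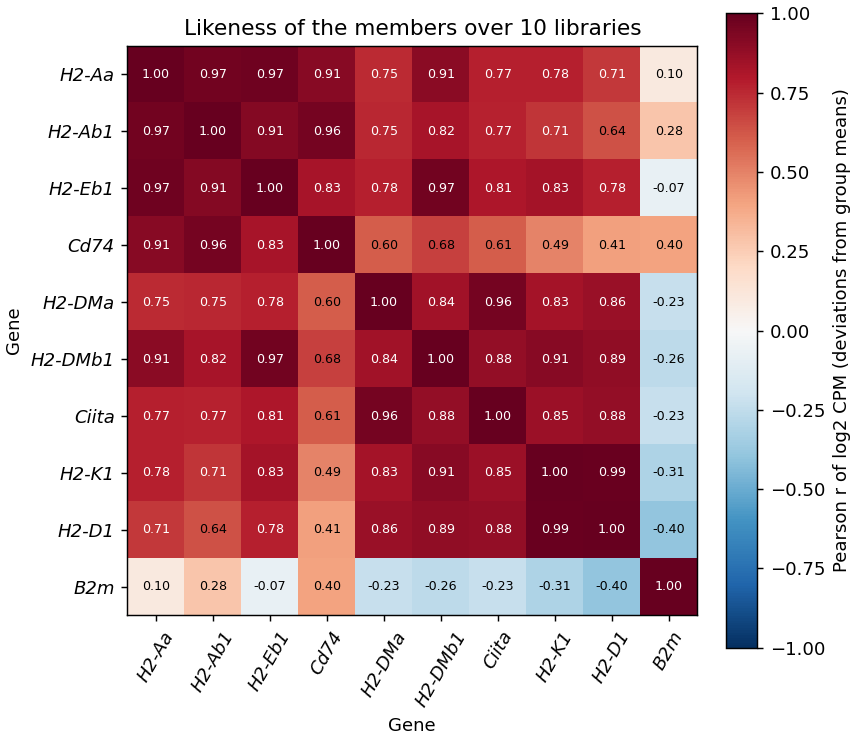
Pearson's r of log2 CPM between members over the 10 libraries, as deviations from the group means, from -1 (blue) to 1 (red). The block of class II genes, H2-K1 and H2-D1 has r from 0.41 to 0.99, and the row of B2m stands apart.

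Other genes that varied like the class II chains and Cd74 were taken by their r with the mean of these 4 members. Selenop, a secreted selenoprotein (r = 0.95, 347.4 CPM on average), Gbp8 (0.94, 0.719 CPM), N4bp2l1 (0.94), Pltp, a phospholipid transfer protein (0.94, 50.3 CPM), Rflnb (0.93), Ms4a7 (0.93, 33.6 CPM), the lysosomal protease Ctsh (0.93, 79.2 CPM) and Cd22 (0.92, 3.00 CPM) were the 8 closest of all genes tested. For the mean of H2-K1, H2-D1 and B2m the 5 closest were Rab13 (0.98), the complement gene C1qb (0.96), Ctsh (0.96), Arl11 (0.95) and the Fc receptor gene Fcgr3 (0.95). Ctsh was on both lists, and C1qb and Fcgr3 are known from macrophages. These are the highest of 15232 values over 10 libraries.

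As B2m and the heavy chains went apart, each was also taken alone after their values had been seen. The genes closest to H2-K1 and H2-D1 were Oas1b (0.99), Bst2 (0.98), Ctsl (0.98), H2-T22 (0.98) and Cnpy2 (0.98), of which Oas1b and Bst2 are known interferon-stimulated genes. Those closest to B2m were Csnk1g3 (0.99), a casein kinase, Erp44 (0.98), an endoplasmic reticulum chaperone, Ing2 (0.98), Gm20634 (0.98) and Zrsr2 (0.97). None of the 8 genes closest to B2m was a class I gene. Likeness to B2m was not taken without NLC-MI 3 and TgGRK5-MI 4, the libraries in which B2m was highest.

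Depth moved with B2m and, in the other direction, with several other members. Over the 10 libraries, the r of log2 B2m with log2 total counts was -0.88 as deviations from the group means, and over the 8 libraries without NLC-MI 3 and TgGRK5-MI 4 it was -0.36. The r with log2 total counts over the 10 libraries was 0.71 for H2-D1, 0.64 for Ciita, 0.63 for H2-DMa, 0.62 for H2-K1 and 0.60 for H2-DMb1, and -0.04 to 0.42 for the class II chains and Cd74. For H2-K1 it was 0.42 over the same 8 libraries, and for the members other than B2m and H2-K1 it was not taken over those 8. The r of B2m with H2-K1 was -0.31 over 10 libraries and 0.42 over those 8. The r of B2m with the sum of 6 endothelial markers was 0.77 and with that of 6 neutrophil markers 0.64, both over all 10 libraries only. NLC-MI 3 and TgGRK5-MI 4 had the highest endothelial sums of their groups, at 2115 and 2098 CPM. Their neutrophil sums were 24.2 and 30.4 CPM. In NLC-MI 3, Cxcr2 made up 14.4 CPM of its neutrophil sum, while Csf3r, at 5.36 CPM, was the lowest of its group. The part of depth or of RNA of these cells in the member values was not tested.

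Markers of several other cell types moved with the other 9 members, macrophage markers among them. The r with the summed CPM of 16 macrophage and monocyte markers was 0.79 for H2-Aa, 0.79 for H2-Ab1, 0.81 for H2-Eb1, 0.59 for Cd74, 0.95 for H2-DMa, 0.87 for H2-DMb1, 0.95 for Ciita, 0.93 for H2-K1 and 0.94 for H2-D1, but -0.16 for B2m. This r was the highest of the 8 marker lists for 6 of the 9 members, and T cell markers were the closest list for H2-Aa (0.80), H2-Ab1 (0.90) and Cd74 (0.87). Over the 9 members, r ran from 0.51 to 0.90 with T cell, 0.51 to 0.93 with dendritic cell, 0.50 to 0.79 with B cell and 0.56 to 0.94 with fibroblast markers. With cardiomyocyte markers it was negative for all 9, from -0.74 to -0.40, while with neutrophil markers it ran from -0.26 to 0.07. The macrophage marker sum spanned 879.9 to 2588 CPM over the NLC-MI libraries and 1407 to 2925 CPM over the TgGRK5-MI libraries, with means of 1531 ± 777.0 and 1927 ± 623.5 CPM (SD, n = 5 each). Of these means, Lyz2 alone made up 594.2 and 789.7 CPM (NLC-MI first), so the sum weighs this gene most. All 16 markers were tested and 0 of 16 had an unadjusted p under 0.05 in edgeR, with a median log2 fold change of 0.21. The sum of H2-Aa, H2-Ab1, H2-Eb1 and Cd74 per marker CPM was 0.189 ± 0.060 in NLC-MI and 0.181 ± 0.045 in TgGRK5-MI (SD, n = 5 each), and its range over all libraries was 2.55-fold, against 4.46-fold for the sum itself. The part of RNA from any of these cell types in the member values was not tested further.

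**Figure D4:**
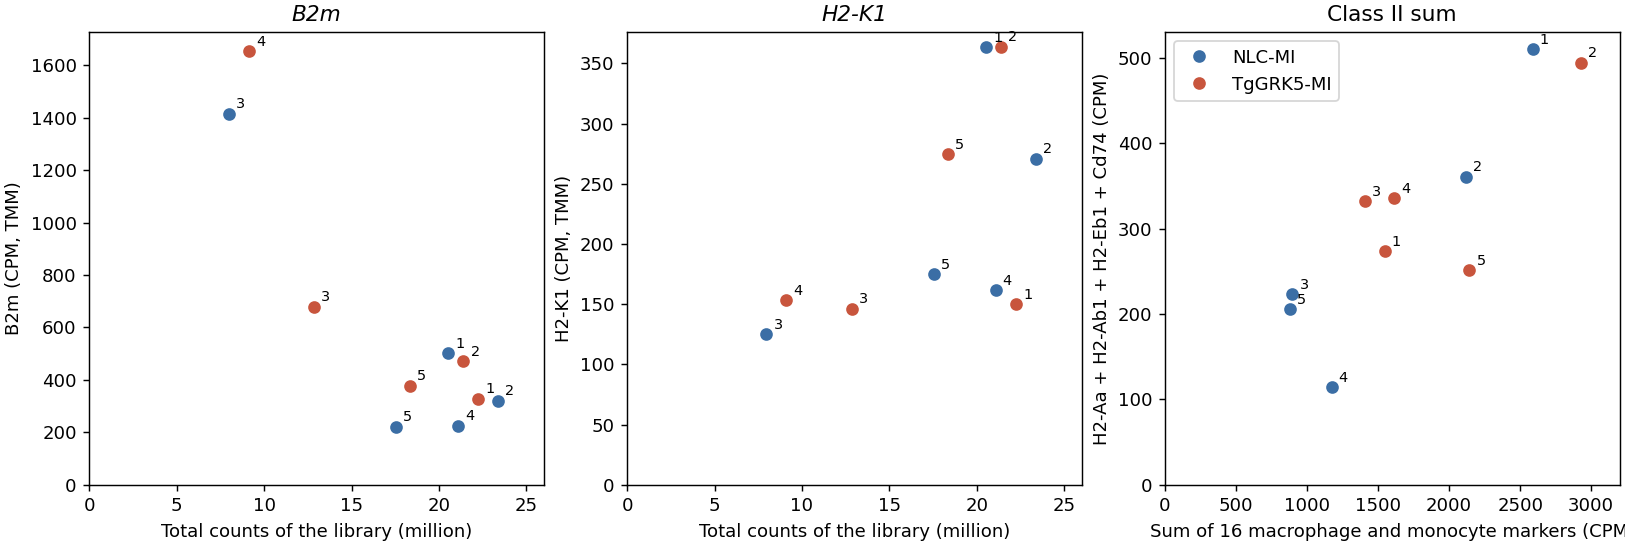
B2m (left) and H2-K1 (middle) in CPM against the total counts of each library, and the summed CPM of H2-Aa, H2-Ab1, H2-Eb1 and Cd74 against the summed CPM of 16 macrophage and monocyte markers (right), with the replicate number beside each point. B2m was highest, at 1415 and 1654 CPM, in the 2 libraries of lowest depth, and NLC-MI 1 and TgGRK5-MI 2 had the 2 highest class II sums and the 2 highest marker sums, while TgGRK5-MI 5, with the third highest marker sum, had a class II sum of 251.2 CPM.

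Markers of dendritic cells and B cells, which also carry class II, and of T cells and neutrophils were low. The 8 dendritic cell markers summed to 20.3 to 36.0 CPM, the 6 B cell markers to 5.30 to 45.1 CPM, the 6 neutrophil markers to 9.75 to 30.4 CPM and the 6 T cell markers to 1.96 to 6.21 CPM over all libraries. The dendritic cell sum had means of 26.95 and 26.86 CPM (NLC-MI first). Of these, Zbtb46 made up 15.5 and 14.0 CPM and Itgax 7.70 and 8.96 CPM. The CD3 genes Cd3e, Cd3d and Cd3g had between 0 and 7 counts a library. Cd8a had 1 to 15, the T cell receptor gene Trac 8 to 50 and Cd4 14 to 87. Of the neutrophil genes, Ly6g had 0 or 1 count a library, but Csf3r had 41 to 315, Cxcr2 29 to 110 and S100a9 15 to 106. Ighm, the heavy chain of IgM, was the single B cell marker with an unadjusted p under 0.05 of 3 tested, with a range of 3.52 to 14.6 CPM over NLC-MI and of 6.77 to 39.4 CPM over TgGRK5-MI libraries (edgeR adjusted p = 1.00). Ighm no longer passed that unadjusted threshold without any 1 of NLC-MI 3, 4 and 5 and TgGRK5-MI 1 and 2, without both NLC-MI 3 and TgGRK5-MI 4 (log2 fold change 1.14), with limma-voom (0.72) or with the sex covariate (0.76). Summed over the list, B cell markers had means of 11.01 ± 5.35 and 23.44 ± 14.1 CPM (SD, n = 5 mice a group, NLC-MI first), of which Ighm alone made up 8.78 and 20.2 CPM. The r of this sum with H2-Aa was 0.79. Among the cardiomyocyte markers, Ryr2 had a log2 fold change of -0.93 (edgeR adjusted p = 0.968), the single marker of 10 with an unadjusted p under 0.05.

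Few other genes of the pathway passed the unadjusted threshold, and the lists were not tested as sets. Of 67 symbols in 6 lists, 65 were in the annotation and 55 were tested, and edgeR found 0 higher and 1 lower at an unadjusted p under 0.05, which is 1.82%, against 3.85% of all genes tested, and 0 at an adjusted p under 0.10. Over all 55 the median log2 fold change was -0.02. The 14 genes of class I peptide supply and loading, which cut peptides and carry them to the class I chains, had a median of -0.08 with 5 positive and 9 negative. They included Tap1 (-0.14 ± 0.30 SE), Tap2 (-0.30 ± 0.29 SE), the immunoproteasome subunit Psmb8 (-0.09 ± 0.39 SE) and the class I coactivator Nlrc5 (-0.27 ± 0.29 SE). The 13 tested other class I and class I-like chains had a median of -0.09, and 10 of the 13 were negative.

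The 6 tested genes of class II processing had a median of 0.31, the highest of the 6 lists, with 5 positive. They included the invariant chain protease Ctss (177.1 ± 110.3 against 223.3 ± 97.2 CPM in NLC-MI and TgGRK5-MI, SD, n = 5 each) and the thiol reductase Ifi30 (log2 fold change 0.38 ± 0.26 SE), and 0 of 6 had an unadjusted p under 0.05. The 9 tested genes of interferon gamma signalling had a median of -0.03 and the 6 costimulation genes one of 0.02. Ifng itself, the cytokine that induces Ciita, had 1 count in NLC-MI 2 and 0 in the other 9 libraries.

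Rfxank, the ankyrin subunit of the RFX complex that binds the X box, was the gene with an unadjusted p under 0.05. It was at 22.4, 25.3, 28.9, 44.0 and 26.9 CPM in NLC-MI 1 to 5 and at 21.7, 16.4, 24.2, 17.0 and 21.9 CPM in TgGRK5-MI 1 to 5. NLC-MI 1 alone of its group lay within the TgGRK5-MI range, and NLC-MI 4, the library with the lowest class II chains, was the highest. Its log2 fold change was -0.54 ± 0.20 SE (edgeR p = 0.0182 and adjusted p = 1.00, exact two-sided permutation p = 0.0159). Without NLC-MI 4 the value was -0.35 ± 0.16 SE, and without both NLC-MI 3 and TgGRK5-MI 4 it was -0.50 ± 0.23 SE. With the sex covariate it was -0.37 ± 0.22 SE, and none of the 3 passed an unadjusted p of 0.05. The other RFX subunits, Rfx5 (0.18 ± 0.17 SE) and Rfxap (-0.25 ± 0.17 SE), did not pass the test.

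Of the same 55 genes, 1 had groups that did not overlap, against 1.00% of all genes tested. It was Jak1, a kinase of the interferon gamma receptor, named after its values were seen, with 172.4 to 188.2 CPM over NLC-MI and 137.2 to 172.2 CPM over TgGRK5-MI libraries. The log2 fold change was -0.16 ± 0.12 SE (edgeR p = 0.200, adjusted p = 1.00), and the exact two-sided permutation p of 0.00794 is the smallest that 5 against 5 libraries can give.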

How the data were processed

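RNA-seq libraries of cardiomyocytes from 5 NLC-MI and 5 TgGRK5-MI mice were compared, with groups taken from the labels. The authors deposited 1 table of whole-number counts per Ensembl gene, not normalized. The submitters' processing notes name Bowtie2, RSEM 1.2.31, DESeq2 and mm10 without their roles. RSEM gives estimated counts, so the deposited counts may be rounded, and how reads shared by several genes were divided, the strand setting and the annotation were not given in the sources used here. Replicates are labelled as separate numbered samples, and p-values measure the spread between them. Of all identifiers, 51596 had a symbol in GENCODE M21.

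Genes were filtered with filterByExpr, scaled by TMM and tested with the quasi-likelihood test of edgeR 4.0.16 (R 4.3.3), with Benjamini-Hochberg adjustment over all 15232 tested genes, a threshold of 0.10 and no covariate. The test was checked on simulated data. Per-gene permutation tests enumerated all 252 regroupings. The log2 CPM used a prior count of 2. DESeq2 1.42.0, limma 3.58.1 (voom with sample weights), other scalings and filters, a covariate of Xist less Y-linked genes, and each library left out were alternatives. Adjusted p-values are from the model across all genes. The text names all members, pathway genes with an unadjusted p under 0.05, H2-Ea-ps, the 8 and 5 genes most like the class II and class I means, markers and Grk5, with a few further genes as examples of their lists. The members, lists and rules were chosen with earlier results of these data known. Promoter windows were from RefSeq on GRCm38.p6, and those of H2-Ab1, Cd74 and Ciita were not used here. Intervals and floors cover counting error or the spread of these libraries only.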

Additional observations from a re-analysis of the deposited data

Results flagged for a closer look

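A library was taken as standing apart where its gap to the nearest of the other 4 libraries of its group, divided by the range of the group, passed Dixon's critical value. Chance flags about 1 in 20 groups, and 20 groups of 5 libraries were looked at, which are not independent since the members vary together. B2m was at 1415 CPM in NLC-MI 3, against 221.0 to 501.7 CPM in the rest of that group, and at 1654 CPM in TgGRK5-MI 4, against 328.7 to 678.2 CPM in the rest of its group. TgGRK5-MI 2 stood apart from its group for 5 members. It had 93.6 CPM of H2-Aa (others 51.3 to 55.5), 87.2 of H2-Eb1 (others 33.3 to 44.0), 9.95 of H2-DMa (others 5.71 to 6.57), 13.0 of H2-DMb1 (others 4.63 to 6.93) and 5.67 of Ciita (others 1.56 to 2.19). This library also had the highest sum of macrophage and monocyte markers, 2925 CPM.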

How the results depend on the processing

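No member had an adjusted p under 0.10 in any of 189 values under 19 alternatives, of which 18 were planned and 1, without the 2 shallowest libraries (NLC-MI 3 and TgGRK5-MI 4), was added after seeing the data. B2m without NLC-MI 3 was the single value with an unadjusted p under 0.05, so the number of such members ran from 0 to 1 as each library was left out. The direction changed in 29 of the 189 values. With the sex covariate H2-Aa was at -0.015 and H2-Eb1 at -0.25, and with limma-voom H2-Ab1 was at -0.054, H2-Eb1 at -0.11 and H2-DMa at -0.092. Leaving out each library in turn gave -0.26 to 0.40 for H2-Eb1, -0.0042 to 0.62 for H2-DMb1, -0.55 to 0.27 for Ciita, -0.28 to 0.23 for H2-K1, -0.32 to 0.21 for H2-D1 and -0.21 to 1.15 for B2m. The cause was not tested. Cd74 kept a positive value in all 19.

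Over all genes, the 8 calls higher and 4 lower became 13 higher with library size alone or no filter, 42 and 27 with DESeq2, 41 and 9 with limma-voom, 4 higher with at least 10 counts in every library, 3 and 1 with the sex covariate, and 1 lower without the 2 shallowest libraries. Leaving out each library gave 2 to 7 higher and 1 to 3 lower. A replicate block on the shared numbers gave 5 calls higher, Ciita at 0.057, H2-K1 at 0.0021 and no member with an unadjusted p under 0.05. The numbers name separate samples. Between libraries that share a number, r was -0.34 to 0.66, not always above 0.1, and 2 of 10 libraries were closest to their own number. Ciita could not be fitted with at least 10 counts in every library, since it did not pass that filter.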
